A study of Mus musculus with 6 samples.

Results

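The Polo-like kinase genes are the 5 genes Plk1 to Plk5 among the 46078 genes of the deposited striatal table, found by matching the Ensembl identifiers to the GENCODE M21 symbols. The family was chosen by the values of Plk5 in these 6 libraries, which were lower in the Shank3 transgenic mice, so the difference of Plk5 between the genotypes is given as a description, with no test. Striatum was taken from male C57BL/6J mice aged 12 weeks, 3 wild-type (WT) mice and 3 transgenic (TG) mice that carry an EGFP-Shank3 transgene, with 1 RNA-seq library per mouse. The promoter of the transgene is not given in the sources used here. The values are normalized read counts, that is the read count of a gene divided by the size factor of its library.

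Polo-like kinases are serine/threonine kinases with an amino-terminal kinase domain and a carboxy-terminal polo-box region that docks them on their substrates. Plk1 drives entry into and passage through mitosis, and Plk4 starts centriole duplication, so both are best known from dividing cells. Plk2 and Plk3 are stress and activity responsive, and in neurons Plk2 is induced by synaptic activity and weakens excitatory synapses by marking the spine protein SPAR for degradation. Plk5 is found mainly in brain, and the human protein lacks most of the kinase domain.

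The 5 genes lie on 5 different chromosomes of GRCm38. Plk1 (ENSMUSG00000030867) spans 122159439 to 122169873 of chromosome 7, Plk2 (ENSMUSG00000021701) spans 110395046 to 110400844 of chromosome 13, and Plk3 (ENSMUSG00000028680) spans 117128655 to 117133963 of chromosome 4 on the minus strand. Plk4 (ENSMUSG00000025758) spans 40800019 to 40816883 of chromosome 3, and Plk5 (ENSMUSG00000035486) spans 80356459 to 80365489 of chromosome 10. The longest annotated coding sequences hold 603, 682, 648, 925 and 599 codons for Plk1 to Plk5, the stop codon not included, which makes Plk4 the longest and Plk5 the shortest of the family. No other annotated gene overlaps Plk2, Plk4 or Plk5. Plk3 shares 84 exon bases with Tctex1d4 on the opposite strand, and Plk1 shares 156 with Gm44985, also on the opposite strand. Whether the counting used strand is not given in the sources used here, and without strand the reads in these shared bases cannot be told apart.

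The promoters of the 3 members with the highest levels in striatum are shown. Plk5 is the member whose values chose the family, and the others serve as its comparison within the family. The letters are those of the reference genome and were not compared between the genotypes. Each sequence is the 250 bases before the RefSeq start on GRCm38.p6, read along the strand of the gene, and all 5 members had an entry. Capitals mark TGACG, the core of the cAMP response element, on either strand, the full element TGACGTCA, and the CCAAT box. The regions are chr13:110394794-110395043 on the plus strand for Plk2, chr4:117133964-117134213 on the minus strand for Plk3 and chr10:80356209-80356458 on the plus strand for Plk5.
Plk2: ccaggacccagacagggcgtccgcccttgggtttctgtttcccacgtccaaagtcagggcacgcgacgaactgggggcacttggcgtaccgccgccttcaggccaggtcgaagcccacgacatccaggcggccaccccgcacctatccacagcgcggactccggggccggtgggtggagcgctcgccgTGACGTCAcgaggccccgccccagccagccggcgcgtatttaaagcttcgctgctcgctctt
Plk3: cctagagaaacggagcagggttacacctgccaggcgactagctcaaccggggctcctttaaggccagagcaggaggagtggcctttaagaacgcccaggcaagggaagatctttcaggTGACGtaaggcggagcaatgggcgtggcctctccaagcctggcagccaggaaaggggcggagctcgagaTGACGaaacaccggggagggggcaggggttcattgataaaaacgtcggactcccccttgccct
Plk5: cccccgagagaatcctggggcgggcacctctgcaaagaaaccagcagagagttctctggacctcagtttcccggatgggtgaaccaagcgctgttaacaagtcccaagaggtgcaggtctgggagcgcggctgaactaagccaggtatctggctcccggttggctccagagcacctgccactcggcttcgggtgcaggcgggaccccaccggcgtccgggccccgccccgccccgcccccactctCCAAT

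Plk2 holds 1 full TGACGTCA, from 62 to 55 bases before the start (positions -62 to -55), a string present in 1.55% of the 32851 RefSeq promoters of this length. Its palindrome counts as 2 of the TGACG cores, Plk3 holds 2 separate cores (from -132 and from -63), Plk4 holds 1 on the minus strand, and Plk1 and Plk5 hold 0, where 17.8% of all promoters hold at least 1. Plk5 instead ends on a CCAAT box (from -5 to -1), and Plk1 has one from -14 to -10, a string found in 33.8% of promoters. The GC box GGGCGG, searched on both strands, occurs 4 times in Plk5, of which 3 lie in a row between -28 and -13 and touch each other by 1 base, 2 times in Plk2, once each in Plk1 and Plk3 and not in Plk4, where 32.7% of promoters hold it. The CArG box of immediate early genes (1.47% of promoters), the E-box CACGTG (6.02%), TATAAA (12.4%) and the cell cycle element TTTGAA (16% of promoters) had 0 matches in the 250 bases of each member. Plk1 holds TTTGAA after its start, from 31 to 36. The upstream bases of Plk5 are 65.6% G or C and those of Plk2 68.4%, against a median of 52.4% over all promoters. These matches describe letters only, and no binding was measured in this study.

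Between 27689589 and 36647626 reads per library fell on genes. Shank3 was 28081 ± 1934 in TG and 13530.2 ± 531 in WT mice (SD, n = 3), and it rose by 1.05 on the log2 scale (adjusted P = 7.04e-05 by limma), so the libraries match their genotype labels. It was the 1 gene of 17605 tested (0.00568%) at an adjusted P value under 0.05, and reads of the transgene and of the endogenous gene were not separated. The 12 markers of medium spiny neurons, the main striatal neurons, were each tested and summed to between 131540 and 183120 in TG and between 158585 and 182614 in WT mice. Markers of cortical excitatory neurons were also present, with sums between 31473 and 43811 in TG and between 36377 and 41742 in WT mice. TG replicate 1 stood apart by its choroid plexus markers, whose median log2 ratios to the WT mean were 2.98, 0.88 and -0.10 in TG replicates 1, 2 and 3. The sums of these markers ran from 8503 to 29032 in TG and from 8134 to 9261 in WT mice. Fewer cells of a type and less RNA per cell cannot be told apart in bulk tissue.

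The level of the 5 kinases in WT striatum was compared as normalized read counts per kb of exon, since a longer gene collects more reads. Plk2, the activity-induced kinase, was the most abundant at 1461 ± 56.7 per kb (SD, n = 3) and lay above 97.1% of the 29202 genes with a read and an annotation. Plk5 followed at 341 ± 18.3 per kb, then Plk3 at 196 ± 38.9 per kb. The mitotic kinase Plk1 reached 33.8 ± 1.92 per kb, above 54.9% of genes, and the centriole kinase Plk4 1.35 ± 0.475 per kb, above 22.4% of genes. Each step in this order was larger than the spread between the WT mice, the smallest being the 1.74-fold step from Plk5 to Plk3.

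**Figure D1:**
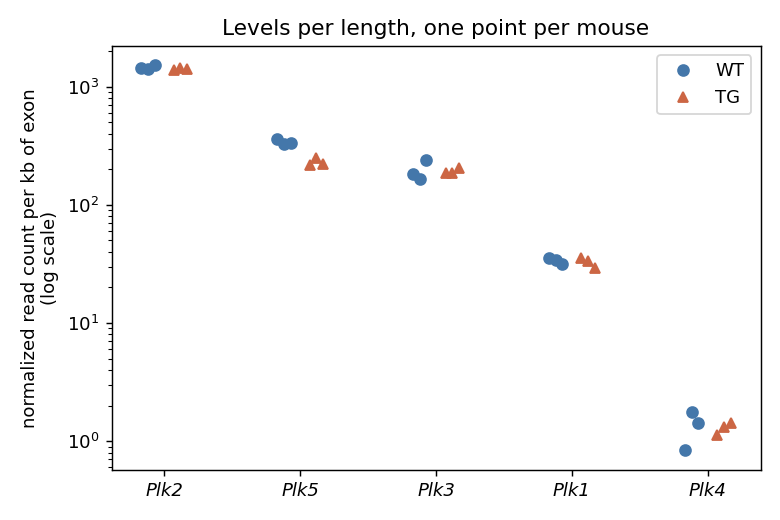
Normalized read counts per kb of exon (log axis) of the 5 Polo-like kinase genes, with 1 point per mouse, circles for WT and triangles for TG mice. The members run from Plk2 at 1461 per kb to Plk4 at 1.35 per kb in WT mice, and the TG values of Plk5 come close to the values of Plk3.

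In the TG mice the order was the same, but the distance between Plk5 and Plk3 was small. Plk5 had 217, 251 and 221 per kb in TG replicates 1, 2 and 3, and Plk3 had 187, 186 and 205 per kb. The highest Plk3 value of any mouse, 240 per kb in WT replicate 3, lay above the Plk5 values of TG replicates 1 and 3. Of the summed level per kb of the family, Plk5 made up 17.9%, 16.9% and 15.6% in WT replicates 1, 2 and 3 and 11.9%, 13.2% and 11.9% in TG replicates 1, 2 and 3, whereas Plk2 made up between 71.3% and 75.8% in every mouse.

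Plk5, the brain-enriched member, had normalized read counts of 968, 880 and 887 in WT replicates 1, 2 and 3. In TG replicates 1, 2 and 3 it had 581, 672 and 593. All 3 TG mice were below all 3 WT mice, and the gap between the groups was wider than the range within either of them. The means were 912 ± 48.9 in WT and 615 ± 49.6 in TG mice (SD, n = 3), so that TG striatum held 67.5% of the WT level. The log2 fold change was -0.57 with a standard error of 0.07 from the fit over all genes, and leaving out single mice moved it to between -0.63 (without TG replicate 2) and -0.52 (without WT replicate 1). These values rest on 598 to 941 reads per library, for which counting alone gives a coefficient of variation of 3.62%, against the 5.36% seen among WT and the 8.05% seen among TG mice. Of the 12832 genes that averaged 100 or more, 7 had a lower log2 fold change than Plk5, which describes the value used in the choice.

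**Figure D2:**
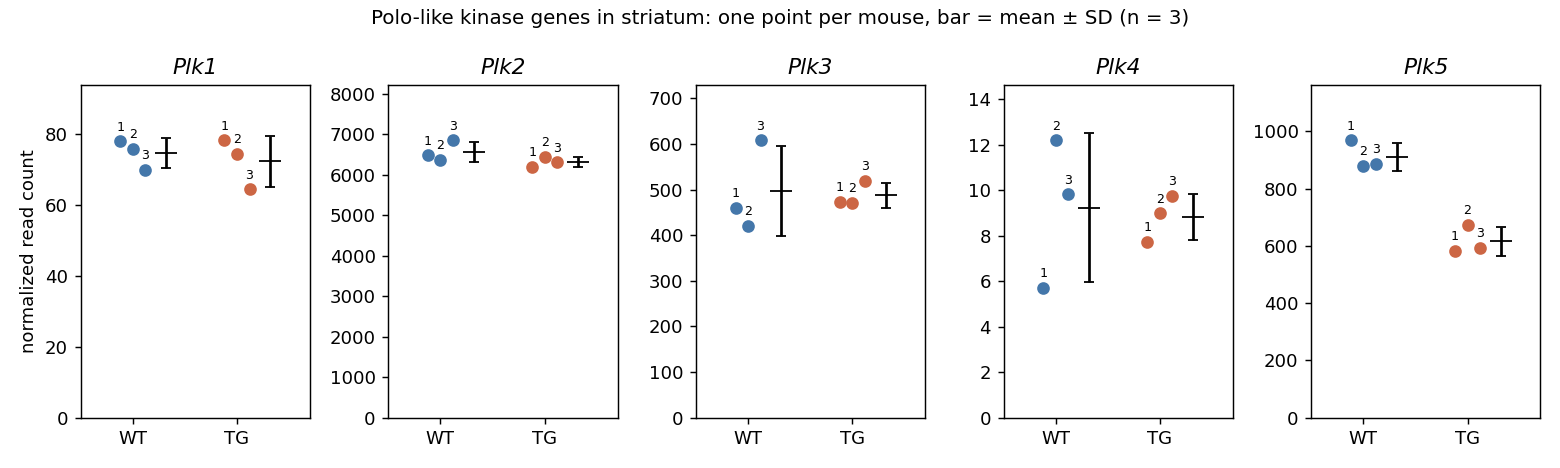
Normalized read count of each Polo-like kinase gene, with 1 point per mouse numbered by replicate and the mean ± SD (n = 3) beside it, each panel on its own axis from 0. The TG points of Plk5, between 581 and 672, lie below all WT points, while the groups overlap in the other 4 genes.

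Plk2 had 6474, 6358 and 6846 normalized read counts in WT replicates 1, 2 and 3 and 6199, 6430 and 6303 in TG replicates 1, 2 and 3. The groups overlapped, with WT replicate 3 the highest. TG and WT mice differed by -0.06 on the log2 scale, with a standard error of 0.05 and a 95% interval from -0.16 to 0.05 (adjusted P = 0.971 by limma), so a difference of the size of Plk5 lies outside the interval. At 5657 reads or more in each library Plk2 was the most precisely measured member, with a coefficient of variation of 1.83% in TG and 3.88% in WT mice.

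Plk3, a stress-responsive kinase, had 460, 421 and 608 normalized read counts in WT replicates 1, 2 and 3 and 473, 471 and 519 in TG replicates 1, 2 and 3. The TG values lay within the WT range, which WT replicate 3 widened. The difference was -0.01 on the log2 scale, with a standard error of 0.12 and a 95% interval from -0.28 to 0.26 (adjusted P = 0.997 by limma), and its sign depended on the mice included, from -0.12 without WT replicate 2 to 0.15 without WT replicate 3. Tctex1d4, the gene that overlaps Plk3 on the other strand, had a mean of 11.6 normalized read counts. How the reads in the shared bases were assigned is not known here.

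Plk1, the mitotic kinase, was low in this adult tissue, with 77.8, 75.8 and 69.7 normalized read counts in WT replicates 1, 2 and 3 and 78.1, 74.2 and 64.3 in TG replicates 1, 2 and 3. The groups overlapped. The difference was -0.05 on the log2 scale, with a standard error of 0.15 and a 95% interval from -0.37 to 0.28 (adjusted P = 0.989 by limma), and it was 0.03 without TG replicate 3. With 66 to 91 reads per library, counting alone gives a coefficient of variation of 11.6%, more than the 9.87% seen among TG mice.

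Plk4, which starts centriole duplication, had 5.72, 12.2 and 9.82 normalized read counts in WT replicates 1, 2 and 3 and 7.72, 8.99 and 9.74 in TG replicates 1, 2 and 3. With 5 to 13 reads per library, it was the 1 member under the minimum mean of 10 and was not tested there. The groups overlapped, and the totals were 27 reads in TG and 28 in WT mice. Without the filter the log2 fold change was -0.01 with a 95% interval from -0.84 to 0.82 (adjusted P = 0.999 by limma), so a difference as large as that of Plk5 was not detectable at this depth.

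Over all genes tested, 10.1% had groups without overlap, 5.05% with TG lower and 5.06% with TG higher. Of the 4 members in the fit, 1, Plk5, had groups that did not overlap, and no test is given for it. Since the family was picked for Plk5, nothing is read from that count. Plk1, Plk2 and Plk3 missed the threshold of 0.05 by limma also before adjustment, and their adjusted P values by edgeR's quasi-likelihood test, DESeq2 and limma-voom lay between 0.975 and 1.00.

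**Figure D3:**
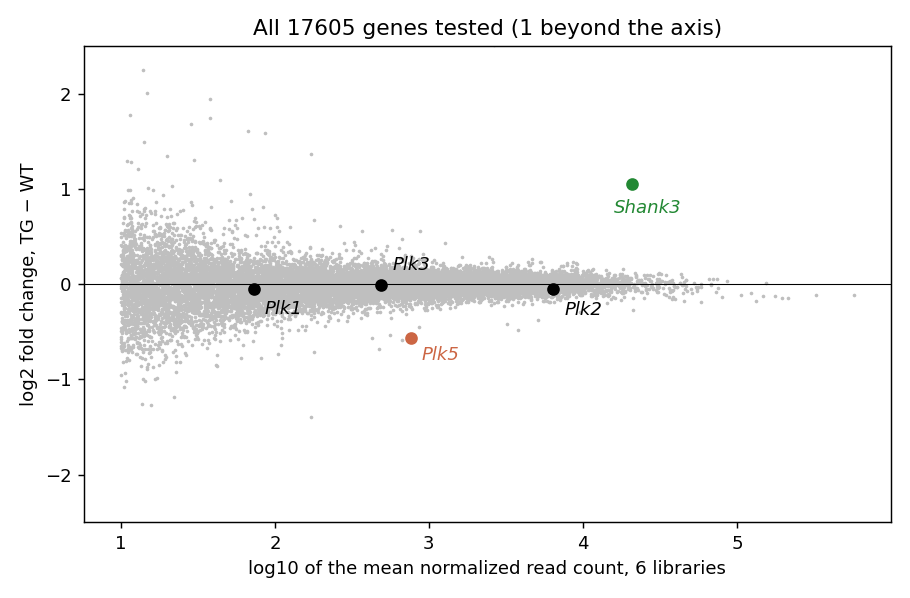
Log2 fold change between TG and WT striatum against the log10 mean normalized read count, with 1 grey point for each of the 17605 genes tested. Shank3 and the Polo-like kinases in the fit are marked, and 1 gene lies beyond the axis. Plk5 at -0.57 lies at the lower edge of genes of its level, and Plk1, Plk2 and Plk3 lie between -0.06 and -0.01.

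The fold changes of all genes moved with the GC content of the transcript. With the genes in 10 bins of GC content, the median log2 fold change was 0.04 in the lowest bin and -0.07 in the highest bin, which holds 1752 genes of at least 57.8% G or C. In that bin 12.8% of genes had lower TG values with no overlap. The longest transcript of Plk5 is 61.4% G or C, that of Plk3 58.8%, that of Plk1 55.98% and that of Plk2 48.0%, so Plk5 and Plk3 fall in the highest bin. In that bin 16 genes had a lower log2 fold change than Plk5, and 0 of its 1330 genes that averaged 100 or more did. Both ranks describe the value the choice of the family used. With a GC correction in each library, the log2 fold change was -0.49 for Plk5 (standard error 0.08), 0.05 for Plk3, -0.01 for Plk1 and -0.06 for Plk2. As log2 ratios to the WT mean, the genes of the highest bin had medians of -0.0009, -0.11 and -0.09 in TG replicates 1, 2 and 3, while Plk5 was at -0.65, -0.44 and -0.62 in the same mice. The part of GC content in the difference of Plk5 was not tested beyond this correction.

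**Figure D4:**
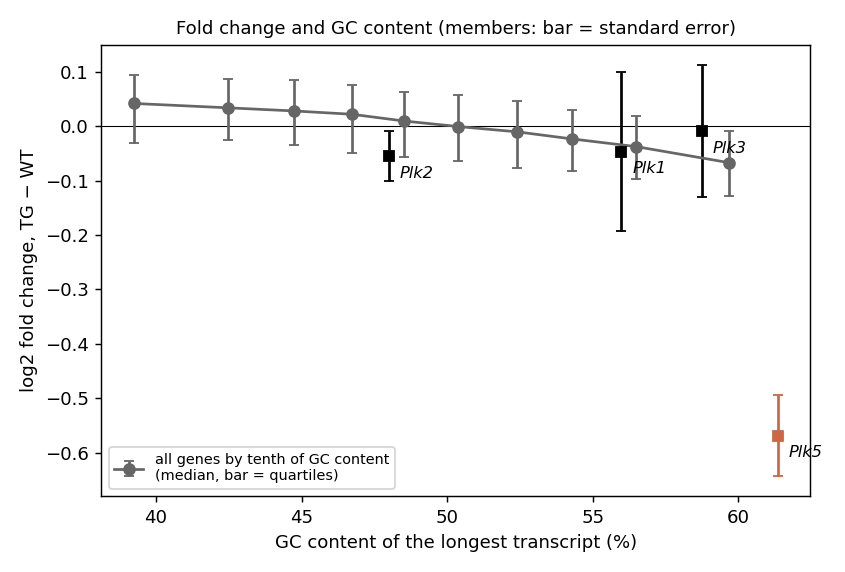
Log2 fold change between TG and WT striatum against the GC content of the longest transcript. The median and quartiles of all genes in 10 bins of GC content are in grey. The 4 members in the fit are squares with their standard errors. The medians run from 0.04 to -0.07, and Plk5 lies at -0.57.

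Markers of other cell types were set beside Plk5, and their part in its difference was not tested. The 10 microglia markers were each tested and had a median log2 fold change of -0.12, with 10 lower in TG mice and 5 of them without overlap, where 50.8% of all genes tested were below 0 and 5.05% were lower without overlap. Their summed level was between 12610 and 13596 in TG and between 13702 and 14358 in WT mice, and none of them was at 0 in all mice. The 12 medium spiny neuron markers, of which Pde10a was the most abundant, had a median log2 fold change of -0.14, with 10 lower and 0 without overlap. Their median log2 ratios to the WT mean were -0.35, 0.14 and -0.14 in TG replicates 1, 2 and 3. Of the other lists, the medians were -0.06 for 10 astrocyte markers, -0.04 for 10 oligodendrocyte markers, -0.07 for 6 precursor markers, -0.02 for 10 endothelial markers, 1.08 for the 14 choroid plexus markers tested, -0.14 for 8 ependymal markers, 0.02 for 10 cortical markers and -0.04 for the 7 thalamic markers tested. Without TG replicate 1 the medians were 0.0077 for medium spiny neuron, -0.11 for microglia, -0.09 for astrocyte and -0.10 for precursor markers. In the same fit they were -0.06 for endothelial, 0.38 for choroid plexus, -0.24 for ependymal and -0.03 for cortical markers. Leaving out TG replicate 1, the mouse with the most choroid plexus RNA, gave a log2 fold change of -0.53 for Plk5.

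The genes around Plk5 were also slightly lower in the TG mice. Of the 5 protein-coding genes on either side, from Apc2 to Onecut3, 9 were tested and 9 had a log2 fold change below 0, with a median of -0.10 and a range from -0.25 to -0.05, where 50.8% of all genes tested and 78.1% of the GC-rich bin were below 0. Groups without overlap were seen in 5 of the 9, where 5.05% of all genes tested and 12.8% of the GC-rich bin had lower TG values without overlap. The 9 genes are themselves GC-rich, between 58.0% and 62.9%, and 5 of the 9 were below 0 after the GC correction, with a median of -0.04 and 3 without overlap, where 3.7% of all genes had lower TG values without overlap after it.

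The nearest neighbour, Adamtsl5, a secreted matrix protein gene 8046 bases before Plk5, had 384, 359 and 331 normalized read counts in TG replicates 1, 2 and 3 and 417, 392 and 428 in WT replicates 1, 2 and 3. All TG values were below all WT values. The log2 difference was -0.21 with a standard error of 0.08 (adjusted P = 0.971 by limma) and -0.16 after the GC correction. Reep6, a membrane-shaping protein gene of the endoplasmic reticulum 20017 bases before Plk5, had 402, 328 and 369 in TG and 469, 408 and 425 in WT mice in the same order, and its log2 fold change was -0.25 (standard error 0.09) and -0.16 after the correction. Tcf3, which encodes the E-protein transcription factors E12 and E47 and lies 44024 bases after Plk5, had 1018, 946 and 966 in TG and 1102, 1088 and 1065 in WT mice, and differed by -0.15 on the log2 scale with a standard error of 0.05, and by -0.08 after the correction.

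The other neighbours tested were closer to 0. Apc2, Uqcr11, 2310011J03Rik, Mbd3, Mex3d and Pcsk4 had log2 fold changes of -0.07, -0.11, -0.10, -0.08, -0.08 and -0.05, and between -0.05 and 0.02 after the GC correction. Onecut3 had at most 2.57 normalized read counts in any mouse and was not tested. By limma, 0 of the 9 genes were called at an adjusted P value of 0.05 and 3 at an unadjusted one, where 2.33% of all genes tested were lower at an unadjusted P value of 0.05, and 0 were called by edgeR, DESeq2 or limma-voom. No tested neighbour reached the size of the difference of Plk5.

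**Figure D5:**
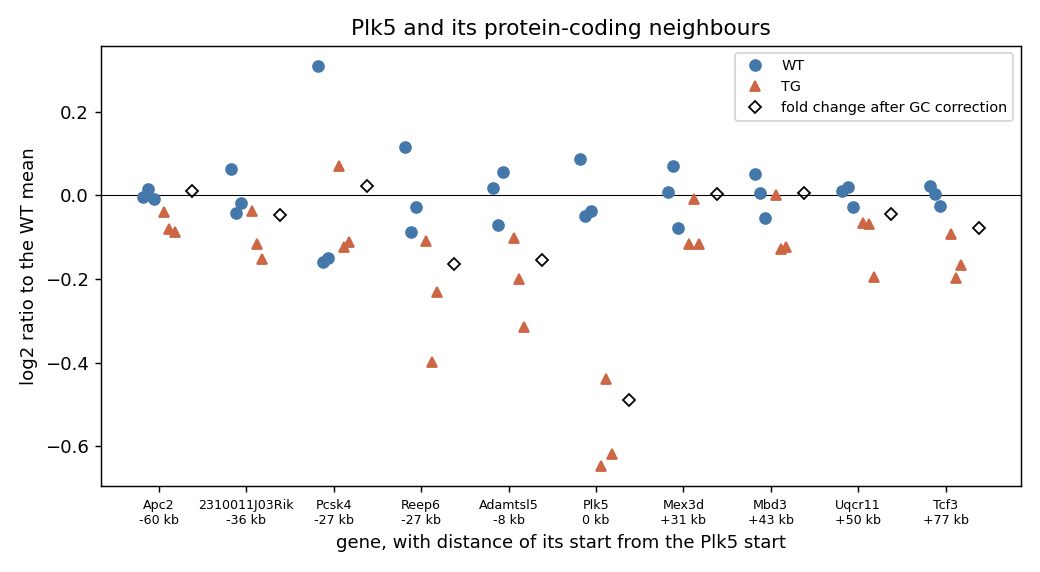
Log2 ratio to the WT mean of Plk5 and the 9 tested protein-coding neighbours, ordered by the distance of their start from the Plk5 start in kb, with 1 point per mouse, and the log2 fold change after the GC correction as open diamonds. The TG points of Plk5 lie between -0.65 and -0.44, while the neighbours' fold changes lie between -0.25 and -0.05 before the correction.

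The genes whose values were most like those of Plk5 were searched among the other 12831 genes that averaged 100 or more. Likeness was the root mean square difference between the log2 profiles over the 6 libraries, each relative to its own WT mean. Among the 5 closest were mt-Co3, a cytochrome c oxidase subunit gene of the mitochondrial genome, at 0.143, Klk6, a secreted protease of oligodendrocytes, at 0.160, and Id3, a helix-loop-helix inhibitor of transcription, at 0.166. Their own values describe the search and are no test. Klk6 had 154, 208 and 174 in TG replicates 1, 2 and 3 against 219, 249 and 258 in WT replicates 1, 2 and 3, and mt-Co3 had 82.4, 126 and 101 against 151, 146 and 130. Both shared with Plk5 the order of the TG mice, with replicate 1 lowest and replicate 2 highest. The mt-Co3 values lay near the minimum mean of 100 used for the search. How reads that match more than 1 place in the genome were counted is not given in the sources used here. Id3 had 495, 524 and 476 in TG against 636, 612 and 660 in WT mice, which is -0.35 on the log2 scale with a standard error of 0.07.

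The genes around each kinase in its pathway were described from lists chosen with earlier results of these data known. By limma 0 genes of the 5 lists passed an adjusted P value of 0.05, and 0 by edgeR, DESeq2 or limma-voom. At an unadjusted P value under 0.05, 1 mitotic gene, 1 synaptic gene and 3 p53 targets passed, where 4.31% of all genes tested did. Without TG replicate 1 these counts were 2 mitotic genes, 4 synaptic genes, 3 immediate early genes and 4 p53 targets, and 0 passed after adjustment. The share of all genes passing in that fit was not counted, so nothing is read from these counts. The median of all genes tested was -0.0018.

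The genes of mitotic entry and exit, with which Plk1 works, were 25, of which 25 were tested, 21 lower and 4 higher in TG mice, with a median log2 fold change of -0.14. TG and WT values were apart without overlap in 3 lower and 0 higher genes, where 5.05% of all genes tested were lower and 5.06% higher without overlap and 50.8% were below 0. Foxm1, a transcription factor that drives mitotic genes and is a substrate of Plk1, had 93.5, 85.4 and 73 normalized read counts in TG replicates 1, 2 and 3 and 106, 118 and 98.2 in WT replicates 1, 2 and 3 (log2 fold change -0.36, standard error 0.14, adjusted P = 0.971 by limma). Pkmyt1, an inhibitory kinase of Cdk1 that Plk1 acts on, had 128, 176 and 166 in TG and 207, 177 and 186 in WT mice, which do not overlap (log2 fold change -0.29). The most abundant genes of the list, Fzr1 and Incenp, overlapped between the groups, with log2 fold changes of -0.06 and -0.11. As log2 ratios to the WT mean, the medians of the list were -0.01, -0.19 and -0.20 in TG replicates 1, 2 and 3 and -0.05, 0.15 and -0.10 in WT replicates 1, 2 and 3, which overlap between the genotypes. Without TG replicate 1 the median of the list was -0.21. The median WT level of the list was 24.6 per kb, a level near that of Plk1.

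Of the genes of centriole duplication, in which Plk4 acts, 13 of 13 were tested, 6 higher and 7 lower, with a median log2 fold change of -0.04, and 0.03 without TG replicate 1. Cep152, the scaffold that recruits Plk4, differed by -0.18 on the log2 scale (standard error 0.13), with 151, 205 and 150 in TG and 203, 184 and 181 in WT mice. Btrc and Fbxw11, the ubiquitin ligase adaptors that have Plk4 degraded, were the most abundant, with log2 fold changes of 0.05 and 0.05. The values of Fbxw11 did not overlap between the groups. In the list 1 gene was higher and 0 were lower without overlap, where 5.06% of all genes tested were higher and 5.05% lower. The median WT level of the list, 116 per kb, was above the 1.35 per kb of Plk4. Its members ranged widely, from 5.35 per kb for Stil to 952 per kb for Fbxw11.

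The synaptic partners and substrates of Plk2 and Plk3 were 10, all of which were tested, 7 higher and 3 lower, with a median log2 fold change of 0.05, and 0.02 without TG replicate 1. Rasgrf1, a Ras exchange factor that Plk2 has degraded, had 12454, 12372 and 12068 in TG replicates 1, 2 and 3 and 10344, 11192 and 11445 in WT replicates 1, 2 and 3. The groups did not overlap, and TG mice were higher by 0.16 on the log2 scale with a standard error of 0.05 (adjusted P = 0.971 by limma). In the list 1 gene was higher and 1 lower without overlap, where 5.06% of all genes tested were higher and 5.05% lower. Gria2, an AMPA receptor subunit, and Nsf, its trafficking partner, were the most abundant, at log2 fold changes of 0.10 and 0.10 with standard errors of 0.05 and 0.05.

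Of 20 immediate early genes, the class to which Plk2 and Plk3 belong, 20 were tested, 11 higher and 9 lower, with a median log2 fold change of 0.02, and -0.09 without TG replicate 1. Of the 20, 0 were free of overlap between the groups, where 10.1% of all genes tested were. Egr1, the transcription factor gene, had 15297, 12719 and 14123 in TG and 11496, 12897 and 16433 in WT mice. Arc, which encodes a postsynaptic protein, had 11044, 8686 and 10140 in TG and 9036, 8433 and 12561 in WT mice. In both genes WT replicate 3 was the highest of the 6 mice, as it was in Plk2 and Plk3. The median of the list relative to the WT mean was 0.10 in WT replicate 3 and 0.17 in TG replicate 1, and in the latter mouse Plk2 was at -0.08 and Plk3 at -0.05. Nr4a2 and Dusp1, the members with the smallest P values, had log2 fold changes of -0.16 and -0.11, with standard errors of 0.09 and 0.07.

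Of 19 targets of p53, a transcription factor that also induces Plk2 and Plk3, 19 were tested, 13 higher and 6 lower, with a median log2 fold change of 0.05, and 0.03 without TG replicate 1. Bax, which promotes apoptosis, had 667, 659 and 624 in TG replicates 1, 2 and 3 and 801, 776 and 763 in WT replicates 1, 2 and 3, all TG values below all WT values. The log2 difference was -0.26 with a standard error of 0.06 (adjusted P = 0.971 by limma), and -0.17 after the GC correction, its transcript being 63.5% G or C. Zmat3 and Trp53inp1, p53 targets that restrain growth, were higher without overlap, at 0.11 and 0.17 with standard errors of 0.05 and 0.07. After the GC correction they were at 0.10 (95% interval from -0.004 to 0.21) and 0.14 (from -0.01 to 0.30). Ccng1, at 0.06, overlapped. In the list 2 genes were higher and 1 lower without overlap, where 5.06% of all genes tested were higher and 5.05% lower.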

How the data were processed

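RNA-seq libraries of 6 mice were used, with groups from the sample labels. The authors trimmed reads with Trimmomatic 0.35, aligned them with TopHat2 2.1.0 on GRCm38 and used HTSeq for gene counts, per the submitters' processing notes. The annotation release is not given in the sources used here. The deposited signal is the count divided by the DESeq2 size factor, here called the normalized read count. Whole reads were recovered by taking the lowest nonzero value of a library as 1 read, and 100% of the values of every library came out within 0.01 of a whole number. Identifiers of 45143 genes matched GENCODE M21.

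The main test was limma 3.58.1 (R 4.3.3) with its trend option, on log2 values after adding a pseudocount of 1. It covered 17605 genes, each averaging 10 or more, and P values were adjusted by Benjamini-Hochberg over all of them with a threshold of 0.05. Plk4 averaged less and was not tested. Plk5 was in the fit, but no P value is given for it. Fold changes on this scale are understated for low genes. Alternatives were edgeR 4.0.16, DESeq2 1.42.0 with and without a prior, limma-voom, other scalings, filters and pseudocounts, each library left out and the replicate number as a block. The GC correction (loess, span 0.3) and the alternatives for the neighbours were added after seeing the data. The fit was tested on simulated data. Standard errors and intervals by limma use a variance moderated toward that of genes of similar level. They rest on n = 3 mice per group and are not the spread of a gene's own mice alone. Counting variation is Poisson.

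Named genes are the 5 members, 5 protein-coding neighbours on either side of Plk5 and overlapping genes, the 5 most like Plk5 (some are not reported here), in each pathway list the 2 most abundant and the 2 with the smallest P value, Shank3 and the most abundant gene of each marker list, of which only Pde10a was printed. Members and lists were chosen with earlier results of these data known. The methods of the study use DESeq2 with an empirical null, which was not used here.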

Additional observations from a re-analysis of the deposited data

How the results depend on the processing

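Plk5 kept its direction under all 18 alternatives, with a log2 fold change between -0.63 and -0.35. Leaving out each mouse gave -0.63 to -0.52, and the lowest size, -0.35, came from DESeq2 with a prior, which shrinks fold changes by construction. With each mouse left out, the log2 fold change ranged from -0.11 to 0.03 for Plk1, from -0.08 to -0.02 for Plk2, from -0.12 to 0.15 for Plk3 and from -0.29 to 0.20 for Plk4. The direction of Plk1 turned to 0.033 without TG replicate 3. That of Plk3 turned in 4 of the 18 alternatives. Its log2 fold change was 0.048 with the GC correction, and 0.013, 0.016 and 0.146 without TG replicate 1, TG replicate 2 and WT replicate 3. No alternative called Plk1, Plk2 or Plk3, and their adjusted P values by limma, edgeR, DESeq2 and limma-voom lay between 0.855 and 1.00. Genes called over the whole table were 1 by limma, 7 by DESeq2, 6 by DESeq2 with a prior, 5 without a filter and from 1 to 2 with each mouse left out, where 2 came without TG replicate 2 and without TG replicate 3. The cause was not tested. Per kb of the longest transcript in place of all exons, the WT levels were 2343 for Plk2, 432 for Plk5 and 2.65 for Plk4, and the order of the members was the same. The median of the neighbours of Plk5 lay between -0.13 and -0.07 with each mouse left out and was -0.04 after the GC correction. Of the 5 genes most like Plk5, 0 were among the 5 closest when genes with a mean of at least 10 were searched. The filter on low values removed no gene of the pathway lists. The replicate number as a block left the log2 fold change of Plk5 at -0.57 and called 1 gene. The deviations of same-numbered mice correlated at 0.20, 0.05 and 0.17, which was the best match for TG replicates 1 and 3. TG replicate 2 correlated best with WT replicate 3 (0.15). The labels do not say whether the numbers pair the mice, and correlations among 3 mice per group cannot settle it. Depth limits Plk4 and Plk1, which had at most 13 and 91 reads per library.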
